A study of Danio rerio with 13 samples.

Results

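The parvalbumin genes of zebrafish (Danio rerio) were followed through 13 muscle libraries sequenced by RNA-seq. Members were the genes of the count table whose symbol, with case ignored, was pvalb1 to pvalb9. Of these 9 symbols 8 were found, out of 32105 genes in the table, and no identifier carried the symbol pvalb6. The libraries came from muscle of AB males aged 3 months, 5 labelled wild type, 5 with 1 mutant allele of tert (tert+/-) and 3 with both alleles mutant (tert-/-). The product of tert is the reverse transcriptase of telomerase. The mutation is carried in every cell, and all mutants came from a single line. Wild type and mutant fish shared strain, sex, age and tissue by their labels, and the labels name no treatment. Whether the fish were littermates, and whether each library held 1 fish, could not be learned from the labels, so p-values measure the spread between these libraries. The study used the mutants as a graded model of telomeric ageing, and the question here was how far parvalbumin transcripts differ when 1 or both copies of tert are lost.

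Parvalbumins are small proteins of the cytosol that bind calcium through paired helix-loop-helix motifs called EF hands. In fast muscle fibres they take up the calcium that the sarcoplasmic reticulum releases for a contraction, and so speed relaxation before the calcium is pumped back. Fish carry several parvalbumin genes and keep very large amounts of the proteins in their white trunk muscle, where they are also the main allergens for people who eat fish. Outside muscle, parvalbumins mark certain neurons, such as the Purkinje cells of the cerebellum, which in zebrafish contain the product of pvalb7, and sensory hair cells, in which zebrafish pvalb8 is a known marker.

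Total counts per library ranged from 10.6 to 47.5 (M), a 4.49-fold span. The tissue label held, since the summed level of 13 fast muscle genes lay between 181696 and 343629 CPM (counts of a gene per 1000000 counts of its library) in every library, led by the actin gene actc1b and the myosin heavy chain gene myhc4. Transcripts of the mutated gene tert lay at 6.55 ± 1.92 CPM (SD, n = 5) in wild type, 6.64 ± 0.772 CPM (n = 5) in tert+/- and 3.85 ± 2.01 CPM (n = 3) in tert-/-, with the normalization factors described below. In plain CPM they ranged from 4.30 to 7.80, from 5.24 to 15.8 and from 3.25 to 4.63. A set of 3 libraries stood apart from the other 10, namely wild type 5, tert+/- 1 and tert-/- 1. They held testis transcripts, with a summed level of 9 testis genes of 388, 809 and 1586 CPM against at most 25.2 CPM in the others. The trimmed mean of M-values (TMM), which sets the scale between libraries in the tests, gave these 3 libraries factors of 1.07, 2.03 and 2.30 and the others 0.771 to 0.922. Muscle genes of these libraries are therefore lower with TMM factors than in plain CPM, and the main comparisons below are also given without them. Without these 3 libraries, tert lay at 6.47 ± 2.21 CPM (SD, n = 4, TMM factors) in wild type. It lay at 6.35 ± 0.470 CPM (n = 4) in tert+/- and 4.77 ± 1.74 CPM (n = 2) in tert-/-. Values of single libraries are plain CPM unless stated otherwise, listed in the order of the library numbers, which are only names.

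As a family, the 8 genes held a mean of 9.56% ± 1.58 of all counts (SD, n = 13). The lowest share, 6.92%, was found in tert+/- 1 and the highest, 12.9%, in wild type 5. Mitochondrially encoded genes held their highest share of counts, 18.3%, in tert+/- 1 and their lowest, 3.99%, in wild type 5. With these genes left out, the parvalbumin share was lowest in tert-/- 1 (8.01%), beside 8.46% in tert+/- 1, and highest in wild type 5 (13.4%). By genotype the share of all counts was 10.4% ± 1.51 in wild type (n = 5) and 9.06% ± 1.57 in tert+/- (n = 5). It was 8.96% ± 1.58 in tert-/- (n = 3), so the genotypes overlapped. With the 3 libraries with testis transcripts left out, the share was 9.82% ± 0.761 (n = 4), 9.60% ± 1.18 (n = 4) and 9.74% ± 1.13 (n = 2), and it lay between 8.77% and 11.3% in all 10 libraries. Each share is precise as a count (95% Wilson interval 12.8% to 12.9% in wild type 5, the library with fewest counts), and these intervals cover counting error only. Nearly all of this came from pvalb1, pvalb2, pvalb3 and pvalb4, which together made up 99.6% to 99.97% of the family's counts in any library.

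**Figure D1:**
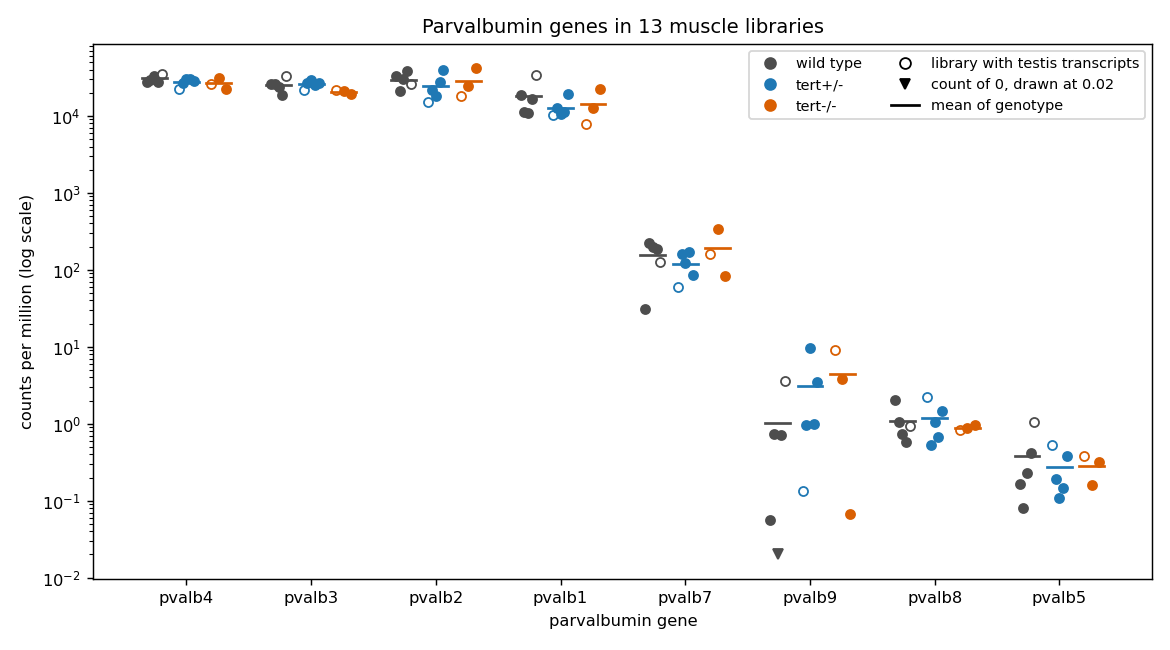
Level of the 8 parvalbumin genes in CPM (log axis), 1 point per library and a bar at the mean of each genotype, with open points for the 3 libraries with testis transcripts and a triangle for a count of 0. The 4 abundant genes lie at 7946 CPM or more in every library, pvalb7 between 31.0 and 334 CPM, and pvalb5, pvalb8 and pvalb9 below 10 CPM.

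Long transcripts gather more counts, so genes were ranked among themselves per kilobase, with the lengths implied by the deposited RPKM values (709 bases for pvalb4, 826 for pvalb3, 1181 for pvalb2, 931 for pvalb1, 1506 for pvalb7, 1261 for pvalb9, 840 for pvalb8 and 1186 for pvalb5). Per length, pvalb4 was the most abundant parvalbumin, at 40126 ± 5170 CPM per kilobase (SD, n = 13), followed by pvalb3 at 29662 ± 4877. The level of pvalb4 was above that of pvalb3 in 13 of 13 libraries, and the gap was larger than the sum of both SDs. Next came pvalb2 at 23095 ± 7314 and pvalb1 at 16396 ± 7633. Both gaps were smaller than the sum of the SDs, a measure that does not pair the genes within a library. Library by library, pvalb3 was above pvalb2 in 10 of 13, and pvalb2 above pvalb1 in 12 of 13, all but wild type 5. A drop of 165-fold separated pvalb1 from pvalb7, at 99.6 ± 52.7 CPM per kilobase. The last 3 genes were pvalb9 at 2.05 ± 2.67, pvalb8 at 1.27 ± 0.621 and pvalb5 at 0.269 ± 0.216. Of these, pvalb9 and pvalb8 did not differ beyond their spread, while pvalb8 was above pvalb5 in every library. Among all 32105 genes, ranked by mean CPM, pvalb4 stood at rank 6, pvalb2 at rank 7, pvalb3 at rank 10, pvalb1 at rank 16 and pvalb7 at rank 393, whereas pvalb9, pvalb8 and pvalb5 were ranked 10752, 14049 and 17890.

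The abundance of these genes does not follow 1 group of neighbours on the chromosomes. In the RefSeq annotation of the GRCz12tu assembly, which is not the build of the count table and was used only for gene order, pvalb8, pvalb4, pvalb1 and pvalb5 are consecutive protein-coding genes, and so are pvalb9, pvalb3 and pvalb2. Each of these rows holds abundant genes (pvalb4 and pvalb1, pvalb3 and pvalb2) next to ones with a mean below 3 CPM (pvalb8 and pvalb5, pvalb9). In the row of pvalb4 and pvalb1, the mean levels were 28449 and 15264 CPM, against 1.07 CPM for pvalb8 and 0.319 CPM for pvalb5. pvalb7 has no parvalbumin neighbour. The sources used here do not say how reads matching several paralogs were counted, so counts of such closely related genes are uncertain, above all the low ones.

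The most abundant gene per length, pvalb4, also had the smallest spread of the members over the 10 libraries without testis transcripts. It lay at 27966, 29401, 32826, 27765 and 35296 CPM in wild type, at 22184, 26974, 29808, 30306 and 28085 CPM in tert+/- and at 25913, 30776 and 22543 CPM in tert-/-. All 13 libraries lay within a 1.59-fold range, and the ranges of the 3 genotypes overlapped only in part. They were 27765 to 35296 CPM in wild type, 22184 to 30306 CPM in tert+/- and 22543 to 30776 CPM in tert-/-. Over the 10 libraries, its SD within genotype was 0.11 on the log2 scale (CPM with TMM factors), and only 1.11% of the 19407 genes tested had a lower one. Of the 17 genes within 3-fold of its level, pvalb4 itself included, 0% had a lower SD there, their median SD being 0.27. With all 13 libraries the SD was 0.60, beside 0.57 for pvalb3 and a median of 0.63 over all genes.

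Its neighbour in rank, pvalb3, lay at 25635, 25977, 23954, 18895 and 32996 CPM in wild type, at 21639, 27128, 28877, 25088 and 26489.8 CPM in tert+/- and at 21725, 20957 and 19152 CPM in tert-/-. The lowest value was that of wild type 4 and the highest that of wild type 5, so that wild type alone spanned the range of both mutant genotypes. In the 10 libraries its SD within genotype was 0.15, and 4.28% of all genes had a lower one. The ratio of pvalb3 to pvalb4 in counts stayed between 0.681 and 1.01 in all 13 libraries.

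The other abundant pair varied more. For pvalb2 the values were 33417, 21212, 29801, 38080.1 and 25875 CPM in wild type, 15013, 21761, 18238, 27732 and 39059.7 CPM in tert+/- and 18085, 24761 and 41544 CPM in tert-/-. The highest library was tert-/- 3 and the lowest tert+/- 1, and each genotype held libraries on both sides of the mean of 27275 CPM. For pvalb1 the values were 18723, 11179, 10778, 16727 and 34313 CPM in wild type, 10265, 12631, 10611, 11280.0 and 19276 CPM in tert+/- and 7946, 12642 and 22065 CPM in tert-/-. On this scale wild type 5 stood far above all others, and tert-/- 1 was the lowest. With TMM factors wild type 5, at 32095 CPM, was followed more closely by tert-/- 3, at 28615 CPM.

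In the 10 libraries without testis transcripts, the SD within genotype was 0.50 for pvalb2 and 0.49 for pvalb1. Over all genes the median SD was 0.43, and 59.6% and 58.6% of genes had a lower SD than pvalb2 and pvalb1. Among genes within 3-fold of their own level, 94.4% of 18 genes varied less than pvalb2 and 87.0% of 23 genes less than pvalb1. Each of these sets counts the member itself, which cannot vary less than itself. As a share of the family's counts, pvalb2 ranged from 20.1% in wild type 5 to 39.4% in tert-/- 3, and pvalb1 from 10.8% in tert-/- 1 to 26.7% in wild type 5. The share of pvalb3 ranged from 18.2% to 32.9% and that of pvalb4 from 21.4% to 35.1%, both lowest in tert-/- 3.

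**Figure D2:**
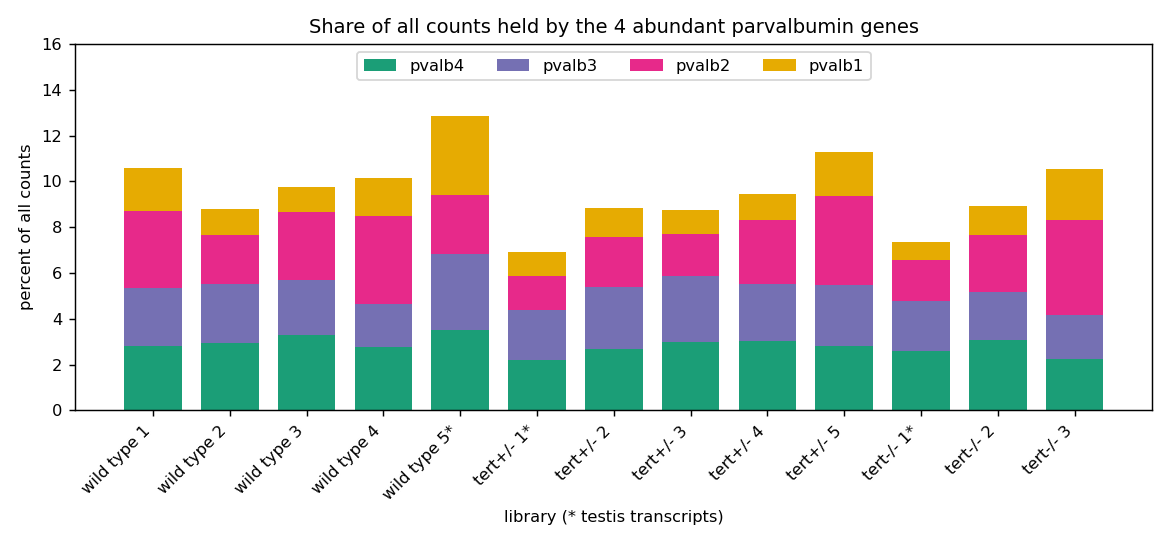
Percent of all counts held by pvalb1, pvalb2, pvalb3 and pvalb4 in each library, stacked, with asterisks on the 3 libraries with testis transcripts. The share of all 8 members, nearly all of it in the genes shown, runs from 6.92% in tert+/- 1 to 12.9% in wild type 5. In wild type 5 the pvalb1 segment is larger than the pvalb2 segment.

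**Figure D3:**
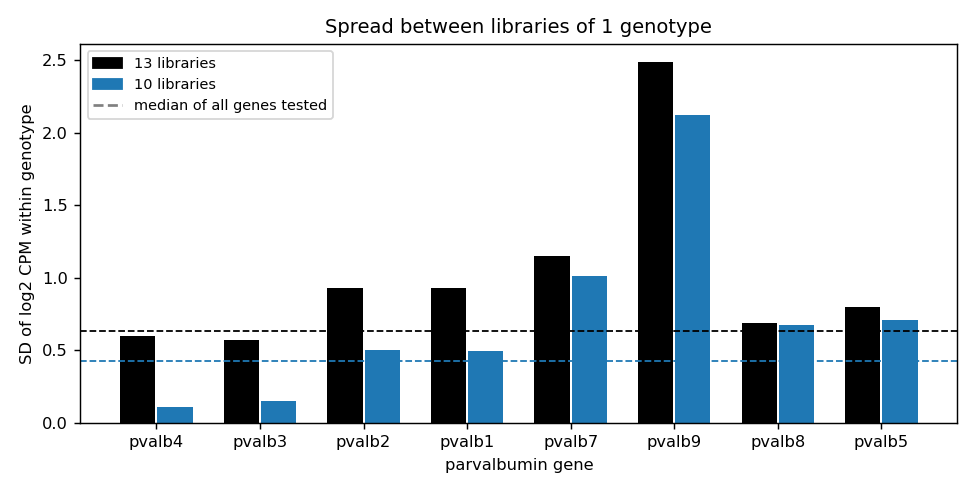
Standard deviation of log2 CPM (TMM factors) between libraries of the same genotype for each parvalbumin gene, over 13 libraries (black) and over the 10 without testis transcripts (blue), with dashed lines at the median of all genes tested (0.63 and 0.43). In the 10 libraries pvalb4 (0.11) and pvalb3 (0.15) lie below the line, and the other 6 genes lie above it.

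The levels of pvalb1 and pvalb2 went together. Over the 10 libraries, Pearson's r between their log2 CPM was 0.88 (permutation test, two-sided, p = 0.0022, adjusted p = 0.0311 over 28 pairs of members) and 0.82 without the 2 libraries farthest from the median of pvalb1. Spearman's rho was 0.71 (permutation p = 0.0270, adjusted p = 0.377), so the relation passed the adjustment by Pearson's r and missed it by rank. With the means of the genotypes removed, r was 0.88, and on plain CPM it was 0.84. The libraries fall into 2 clusters by their testis transcripts, so no correlation over all 13 is given. In counts, pvalb1 stood at 0.362 to 0.582 of pvalb2 in the 10 libraries, and outside this range lay wild type 5 with a ratio of 1.33 and tert+/- 1 with 0.684.

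The pair pvalb3 and pvalb4, in contrast, had r = 0.22 over the same 10 libraries (permutation p = 0.551, adjusted p = 0.758, rho = 0.20 with adjusted p = 0.849). The gene with the fewest counts, pvalb5, followed pvalb2 with r = 0.86 (permutation p = 0.00222, adjusted p = 0.0311, r = 0.81 without the 2 farthest libraries), and rho was 0.78 (adjusted p = 0.2996). However, pvalb5 had only 3 to 17 counts per library, from 0.0812 CPM in wild type 2 to 1.04 CPM in wild type 5, beside a mean of 27275 CPM for pvalb2. Whether those few reads came from pvalb5 itself was not tested. None of the other 25 pairs passed the adjustment by Pearson's r, and no pair passed it by rank. The strongest of them was pvalb7 with pvalb8, with r = -0.77 (permutation p = 0.00999, adjusted p = 0.0932).

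The gene of middle level, pvalb7, had a different pattern. Its values were 31.0, 222, 199.9, 189 and 127 CPM in wild type, 60.4, 161, 124, 172 and 86.1 CPM in tert+/- and 160.3, 334 and 84.1 CPM in tert-/-. Wild type 1 was the lowest library and tert-/- 2 the highest. Of this 10.8-fold range, the 3 genotypes shared the stretch from 84.1 to 172 CPM. Within genotype its SD was 1.02 in the 10 libraries. A lower one was found for 91.2% of all genes and 96.2% of the 853 genes within 3-fold of its level, pvalb7 itself included.

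Transcripts of slow muscle moved with pvalb7. Slow fibres contract weakly and for long, burn fuel in their mitochondria, and in zebrafish form a thin layer beside the bulk of fast muscle. The summed level of 9 slow muscle genes, led by the tropomyosin genes TPM2 and tpm3, was 569, 1533, 1152, 982 and 777 CPM in wild type, 1007, 1355, 712, 1259 and 460.1 CPM in tert+/- and 872, 1757 and 645 CPM in tert-/-. Over the 10 libraries, pvalb7 and this sum had r = 0.81 (permutation test, two-sided, p = 0.00266, adjusted p = 0.0426 over 16 relations of 8 members with the slow and the fast list) and rho = 0.88 (permutation p = 0.00177, adjusted p = 0.0283). Without the 2 libraries farthest from the median of pvalb7, r was 0.89. This family of relations was chosen after the values were seen, so its p-values, adjusted or not, are descriptive. The part of slow muscle in the level of pvalb7 was not tested further. In bulk tissue, fewer cells of a type and less RNA per cell cannot be told apart. No other member passed the adjustment with either list. The values were r = -0.69 for pvalb1 (permutation p = 0.0296, adjusted p = 0.158), r = -0.70 for pvalb8 (permutation p = 0.0228, adjusted p = 0.158), r = -0.56 for pvalb2 (adjusted p = 0.213) and r = 0.04 for pvalb4 (adjusted p = 0.956) with the slow list. With the fast list, r was 0.64 for pvalb2 (permutation p = 0.0480, adjusted p = 0.192) and 0.60 for pvalb1 (adjusted p = 0.213). It was -0.08 for pvalb3 and -0.05 for pvalb4 (adjusted p = 0.956 for each). The Purkinje cell genes CA8 and PCP4, the only ones of that list matched, summed to 2.52 to 12.3 CPM over the 13 libraries. A list of 8 neuron genes summed to 16.2 to 68.0 CPM. A relation of pvalb7 with either list was not tested.

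**Figure D4:**
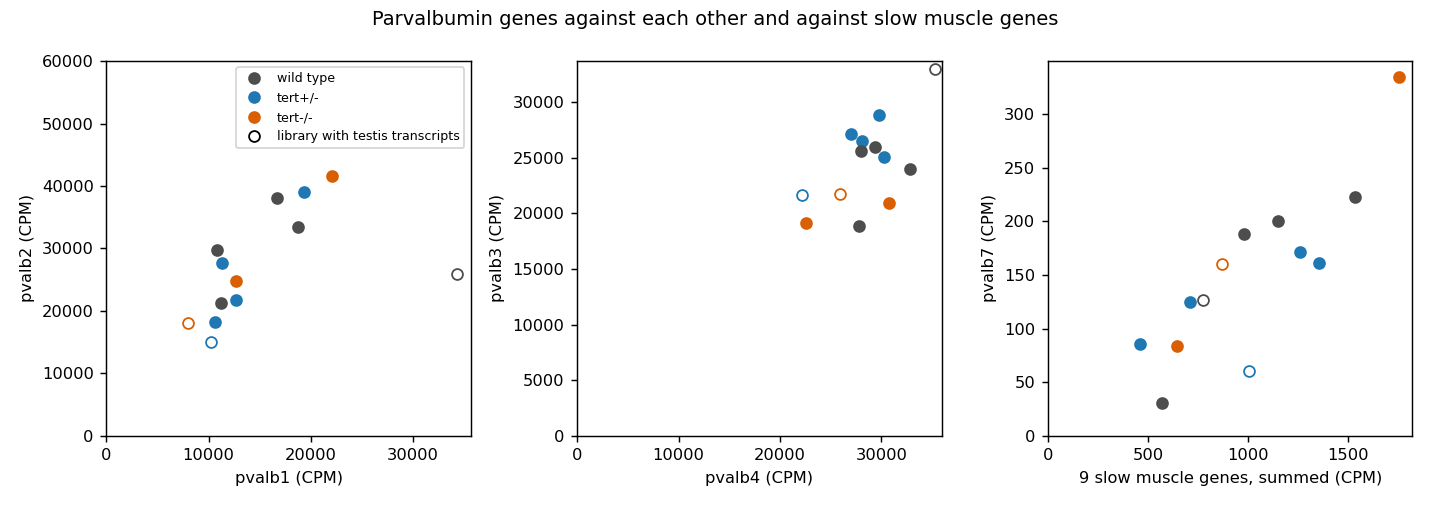
Plain CPM per library of pvalb2 against pvalb1 (left), of pvalb3 against pvalb4 (middle) and of pvalb7 against the summed level of 9 slow muscle genes (right), coloured by genotype, with open points for the 3 libraries with testis transcripts. Pearson's r on log2 CPM with TMM factors over the 10 filled points is 0.88, 0.22 and 0.81, and the open point far to the right in the left panel is wild type 5.

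The 3 least abundant genes had low counts in these libraries. For pvalb9 the values were 0.0553, 0.731, 0, 0.705 and 3.59 CPM in wild type, 0.134, 0.961, 9.73, 0.990 and 3.51 CPM in tert+/- and 9.20, 3.86 and 0.0680 CPM in tert-/-. These rest on 0 to 269 counts per library, and the count of 0 in wild type 3 allows a level of up to 0.0860 CPM. Over all 13 libraries, high and low values occurred in each genotype, the highest being tert+/- 3 and tert-/- 1. However, the highest wild type value (wild type 5) and the lowest tert+/- value (tert+/- 1) came from libraries with testis transcripts. Without these, wild type lay at 0 to 0.731 CPM and tert+/- at 0.961 to 9.73 CPM. With TMM factors, 4.64% of all 19407 genes also did not overlap there. The SD of pvalb9 within genotype was 2.12 in the 10 libraries, more than that of 99.5% of all genes. The library with the highest pvalb9, tert+/- 3, also had the highest summed level of 7 skin genes (976 CPM). Wild type 3, with no count of pvalb9, had the next highest (663 CPM). A relation of pvalb9 with the skin genes was not tested.

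The level of pvalb8 was 2.02, 1.06, 0.745, 0.584 and 0.945 CPM in wild type, 2.21, 0.521, 1.05, 0.674 and 1.44 CPM in tert+/- and 0.824, 0.869 and 0.975 CPM in tert-/-. It passed 2 CPM only in wild type 1 and tert+/- 1. Of 10 hair cell genes matched, the summed level was 1.90 to 4.18 CPM in the 10 libraries and up to 26.7 CPM in those with testis transcripts. The highest level of a single gene in any library ran from 0.0670 CPM for the transcription factor gene POU4F3 to 14.3 CPM for MYO7A. A relation of pvalb8 with these genes was not tested.

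A further identifier, ENSDARG00000009311, was paired only with the symbol PVALB and lies outside the rule. It is described because its values stood out when seen, and no test was made on it. Its level was 0.913, 1.24, 0.573, 0.511 and 24.5 CPM in wild type, 131, 2.17, 0.506, 4.27 and 2.75 CPM in tert+/- and 119, 1.39 and 0.680 CPM in tert-/-. The 3 highest values were those of the 3 libraries with testis transcripts, and all other libraries lay at or below 4.27 CPM. Both pvalb2 and pvalb7 list pvalb as a synonym in the RefSeq table, but each has another identifier of its own in the count table. The identifier was therefore assigned to neither. Whether it is pvalb6, the only member without an identifier, was not tested.

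For each member with a mean of at least 1 CPM, the 3 genes most like it were named by the highest Pearson's r of log2 CPM over the 10 libraries, among 4704 genes with a symbol and a mean of at least 10 CPM. These are descriptions over points that share library and depth. The genes are the highest of 4704 values over 10 points each, and whether they exceed chance was not tested. The genes most like pvalb1 were CASQ1, the calcium buffer of the sarcoplasmic reticulum (r = 0.91), si:ch211-116o3.5 (0.91) and ASPH (0.91). The genes most like pvalb2 were si:ch73-367p23.2 (0.92), the chromatin remodeller CHD2 (0.91) and pbxip1a (0.91). Likeness was weaker for the 2 steady genes. It led with the glutathione peroxidase gene gpx1a (0.86), si:dkey-211f22.5 (0.85) and ankrd50l (0.80) for pvalb3, and with the splicing regulator HNRNPL (0.86), the ubiquitin ligase PELI3 (0.84) and wbp1 (0.83) for pvalb4.

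Likeness was closest for pvalb7, with 61 genes at r of 0.9 or more, against 6 for pvalb1, 3 for pvalb2 and none for pvalb3 and pvalb4. Its leading genes were calr3b, a calreticulin gene of the calcium-binding chaperones of the endoplasmic reticulum (0.99), ETFB, which passes electrons from fatty acid oxidation to the respiratory chain (0.97), and COQ9, needed to make ubiquinone (0.96). For pvalb8 they included hap1 (0.92) and the mitochondrial carrier gene slc25a55a (0.92). For pvalb9 they were the small GTPase gene arf6b (0.91), ODC1 of polyamine synthesis (0.90) and the phosphatase gene PPP4C (0.82).

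Between genotypes, no change of a parvalbumin gene passed the test. In edgeR's quasi-likelihood test on all 19407 genes that passed the expression filter, 0 of 8 members were called at an adjusted p under 0.05 in tert-/- against wild type, tert+/- against wild type or tert-/- against tert+/-. The same test called 0% of all genes in each comparison, so the count says nothing particular to the family. At an unadjusted p under 0.05 it gave 233 genes higher and 263 lower in tert-/- against wild type, 225 and 332 in tert+/- against wild type and 127 and 157 in tert-/- against tert+/-, and no member was among them. DESeq2 called 1, 0 and 1 genes and limma-voom 0 in each, none of them a parvalbumin gene. Adjusted p-values of the members lay between 0.992 and 0.9999. In each of the 3 comparisons the levels of all 8 members (CPM with TMM factors) overlapped between the genotypes, while those of 1.39%, 0.593% and 1.21% of all genes did not. Over the 10 libraries, 0, 1 and 1 members did not overlap, against 11.4%, 4.64% and 8.91% of all genes.

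For pvalb4 the mean level with TMM factors was 34571 ± 1704 CPM in wild type (SD, n = 5), 28858 ± 10324 in tert+/- (n = 5) and 24674 ± 11785 in tert-/- (n = 3). The log2 fold change was -0.49 (SE 0.57, 95% interval -1.71 to 0.74) for tert-/- against wild type by edgeR. Without the 3 libraries with testis transcripts it was -0.12 (SE 0.17, 95% interval -0.50 to 0.26), and in tert+/- against wild type -0.06 (SE 0.14, 95% interval -0.36 to 0.25). Over the 10 libraries these were the narrowest intervals of the 8 members in both comparisons.

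For pvalb3 the mean level with TMM factors was 28579 ± 3464 CPM in wild type, 27015 ± 9338 in tert+/- and 19037 ± 8351 in tert-/-. The log2 fold change was -0.59 (SE 0.55, 95% interval -1.77 to 0.60) in tert-/- against wild type by edgeR, and without the 3 libraries it was -0.19 (SE 0.18, 95% interval -0.59 to 0.21). In tert+/- against wild type it was -0.08 (SE 0.47), and without the 3 libraries the sign turned, to 0.17 (SE 0.15).

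For pvalb2 the log2 fold change in tert-/- against wild type was -0.21 (SE 0.71, 95% interval -1.74 to 1.33), and for pvalb1 it was -0.40 (SE 0.69, 95% interval -1.89 to 1.09). Both signs turned without the 3 libraries, to 0.18 (SE 0.38, 95% interval -0.66 to 1.02) for pvalb2 and 0.35 (SE 0.37, 95% interval -0.48 to 1.17) for pvalb1. In tert+/- against wild type the values were -0.38 (SE 0.61) and -0.59 (SE 0.59), and without the 3 libraries -0.23 (SE 0.31) and -0.12 (SE 0.31). None of these differences is larger than the spread between libraries.

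For pvalb7 the log2 fold change was 0.06 (SE 0.69, 95% interval -1.44 to 1.56) in tert-/- against wild type and -0.41 (SE 0.60, 95% interval -1.71 to 0.89) in tert+/- against wild type. Without the 3 libraries they were 0.35 (SE 0.65) and -0.27 (SE 0.54). The largest values belonged to pvalb9, at 1.503 (SE 1.48, 95% interval -1.69 to 4.70) and 1.87 (SE 1.35, 95% interval -1.05 to 4.80). Over the 10 libraries the value in tert-/- was 2.28 (SE 1.39), and that in tert+/- became 3.32 (SE 1.26, 95% interval 0.52 to 6.11), with an unadjusted p of 0.0244 and an adjusted p of 0.552 by edgeR. In tert+/- against wild type, that fit gave an unadjusted p under 0.05 for 1 of 8 members and for 8.96% of all 17970 genes. In these 10 libraries the levels of pvalb9 were 1.04 to 11.6 CPM with TMM factors in 4 tert+/- libraries and 0 to 0.867 CPM in 4 wild types, without overlap. Without overlap were also 4.64% of the 19407 genes of the main fit, and wild type 5, which was left out, lay at 3.36 CPM. Fitted folds of pvalb9 depend on counts as low as 0. The low-count genes pvalb5 and pvalb8 gave log2 fold changes of -0.65 and -0.54 (SE 0.72 and 0.53) for tert-/- relative to wild type. Without the 3 libraries, pvalb5 turned sign, to 0.15 (SE 0.75), and pvalb8 stood at -0.20 (SE 0.55).

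In tert-/- against tert+/-, the values ran from -0.50 (SE 0.55) for pvalb3 to 0.46 (SE 0.69) for pvalb7. Without the 3 libraries, pvalb3 had a log2 fold change of -0.36 (SE 0.18, 95% interval -0.77 to 0.04) with an adjusted p of 0.99999 by edgeR. Its 2 tert-/- libraries then lay at 22810.1 and 24837 CPM with TMM factors, below the 29416 to 34324 CPM of 4 tert+/- libraries. Of the 19407 genes of the main fit, 8.91% also did not overlap. The median log2 fold change over the 8 members was -0.44 in tert-/- against wild type, -0.32 in tert+/- against wild type and -0.11 in tert-/- against tert+/-, and over all genes it was -0.03, 0.0016 and 0.0029. Without the 3 libraries the medians of the members were 0.17, -0.13 and 0.18, so that the first and the last turned sign, and those of all 17970 genes then tested were -0.02, 0.0037 and -0.0074. The first 2 comparisons share the wild type libraries. A fit on the number of mutant alleles (0, 1 or 2) gave values from -0.35 (SE 0.33) per allele for pvalb5 to 0.89 (SE 0.87) for pvalb9, with 0 of 8 members and 0% of all genes called, against 274 genes higher and 343 lower at an unadjusted p under 0.05.

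**Figure D5:**
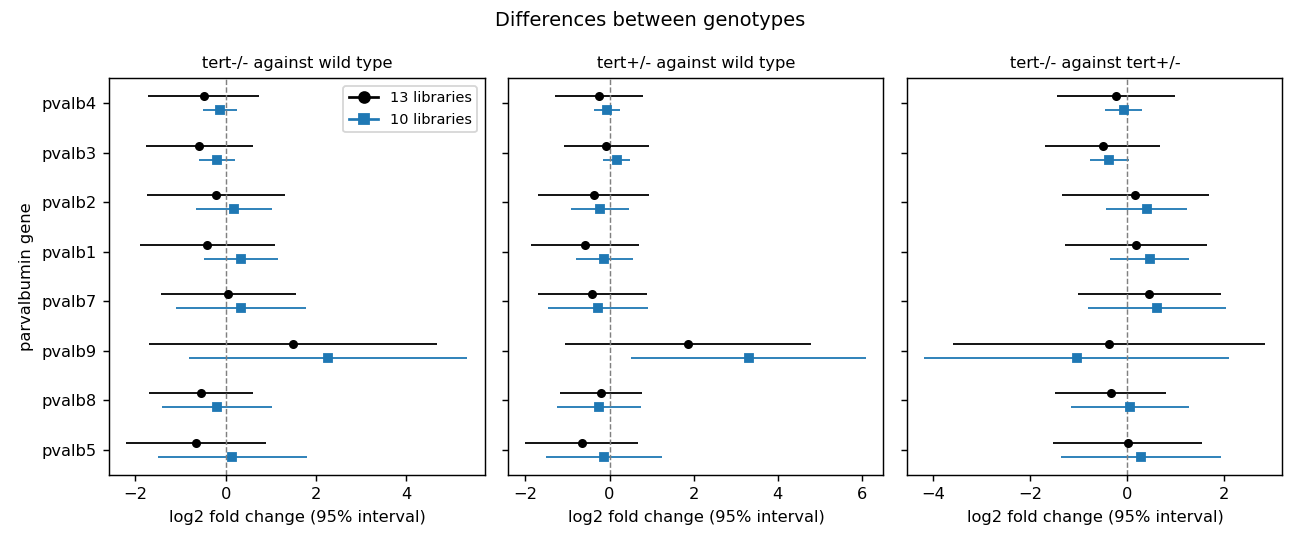
Log2 fold change of each parvalbumin gene in the 3 comparisons by edgeR, with 95% intervals, from the fit of 13 libraries (black circles) and of 10 libraries without testis transcripts (blue squares). The interval for pvalb9 in tert+/- against wild type over 10 libraries (0.52 to 6.11) is the one that does not include 0, and its adjusted p is 0.552. In that comparison and fit, 8.96% of all genes had an unadjusted p under 0.05.

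The other genes that handle calcium gave no call either. Of 63 genes matched from a list of calcium channels, pumps, exchangers, buffers and calcium-dependent enzymes, 58 were tested and 0 were called in any comparison. Comparing tert-/- with wild type, 37 of the 58 (63.8%) had a negative log2 fold change, with a median of -0.17, against 52.3% of all genes and a median of -0.03. In tert+/- against wild type 43 (74.1%) were negative (median -0.15), against 49.8% of all genes, and in tert-/- against tert+/- 29 were, against 49.7%. Unadjusted p-values under 0.05 were found for 1 (1.72%), 3 (5.17%) and 1 of these genes, and for 2.56%, 2.87% and 1.46% of all genes. A fit without the 3 libraries with testis transcripts was added after the values were seen. In it 57 genes of the list were tested and 0 called, 27 (47.4%), 34 (59.6%) and 17 (29.8%) had a negative value in the 3 comparisons, against 52.8%, 49.6% and 51.1% of all genes, and the medians were 0.02, -0.07 and 0.08, so that 2 of the 3 turned sign.

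The genes of smallest p in that list were the sodium-calcium exchanger gene SLC8A3, the plasma membrane calcium pump gene atp2b1b and the calmodulin-dependent kinase gene CAMK2A. SLC8A3 lay at 4.51 ± 6.27 CPM in wild type (SD, n = 5, TMM factors) and at 1.05 ± 0.450 CPM in tert-/- (n = 3), a log2 fold change of -2.09 (SE 0.86, adjusted p = 0.992 by edgeR). In tert+/- it lay at 1.41 ± 0.397 CPM (n = 5), and the fitted log2 fold change was -1.66 (SE 0.70, adjusted p = 0.9999). For atp2b1b the value in tert-/- against wild type was 2.67 (SE 1.38), from 4.603 ± 7.66 CPM against 0.778 ± 1.20 CPM. For CAMK2A it was -0.88 (SE 0.40) for tert+/- relative to wild type and 0.97 (SE 0.45) for tert-/- relative to tert+/-. In SLC8A3 and atp2b1b, the group with the higher mean had an SD above that mean. Without the 3 libraries, SLC8A3 had log2 fold changes of -0.42 (SE 0.45) in tert-/- and -0.17 (SE 0.36) in tert+/- against wild type. That of atp2b1b in tert-/- against wild type then turned, to -0.38 (SE 0.85), and CAMK2A gave -0.84 (SE 0.31) and 1.27 (SE 0.36, adjusted p = 0.99999 by edgeR).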

How the data were processed

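Sequencing of muscle RNA gave 13 libraries, grouped by the genotype in their labels. Counts of reads per gene were deposited by the authors without normalization. The submitters' processing notes name bcl2fastq 1.8.4, STAR 2.4.1d, featureCounts 1.4.6-p4 and the GRCz10 genome. The sources used here do not state the annotation release, the strand setting or how multiply matching reads were treated. The deposited RPKM values imply 1 length per gene only when the 13 library totals are applied in turn down the table (highest CV of the implied length 0.0563% over 2227 genes, against a median of 67.8% with each library's own total). They therefore served only for lengths, and levels were recalculated.

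Of 32105 genes, 26269 (81.8%) were paired with a symbol. Counts were tested with edgeR 4.0.16 (R 4.3.3): quasi-likelihood, TMM factors, default expression filter (19407 genes), 1 fit of 13 libraries with a mean per genotype, and Benjamini-Hochberg adjustment over all genes with a threshold of 0.05. The code was tested on simulated data. Correlations took log2 CPM (prior count 2) and 100000 permutations (numpy 2.4.6). Wilson intervals came from scipy 1.17.1 and cover counting error only. Alternatives were DESeq2 1.42.0, limma-voom (limma 3.58.1) with quality weights, robust dispersion, other factors and filters, fits of 2 genotypes alone, and fits without single libraries or without the 3 with testis transcripts.

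Named were all parvalbumin genes, the 2 calcium handling genes of smallest p per comparison, the 2 most counted fast and slow muscle genes, the 3 genes most like each member (1 of them, for pvalb8, is not reported here), and tert. Other genes were chosen after their values were seen. Members and lists were chosen with earlier results of these data known. The identity of reads shared by near-identical paralogs could not be checked. No sequences are shown.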

Additional observations from a re-analysis of the deposited data

Results flagged for a closer look

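Of 18 groups of 5 libraries tested with Dixon's criterion on CPM with TMM factors, 4 held a library far from the others. Chance flags about 1 in 20 such groups when they are independent. These groups share libraries and TMM factors, so the 4 cannot be weighed against that rate. In tert+/-, library 1 lay at 10696 CPM for pvalb3, with the other 4 at 29416 CPM or more, and at 10966 CPM for pvalb4, with the others at 29249 CPM or more. That library held testis transcripts and had a TMM factor of 2.03. In plain CPM it lay nearer to the other 4, at 21639 for pvalb3 and 22184 for pvalb4. The others then lay at 25088 CPM or more for pvalb3 and at 26974 CPM or more for pvalb4. Wild type 1 stood above the other wild types in pvalb8, at 2.52 CPM against at most 1.20 CPM. Wild type 5, which also held testis transcripts, stood above them in pvalb9, at 3.36 CPM against at most 0.867 CPM. The part of the testis transcripts in these values was not tested.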

How the results depend on the processing

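No member passed the threshold under any alternative, with a lowest adjusted p of 0.349. The count of 0 called genes was kept in every comparison under every alternative except DESeq2, which called 1 gene, nlrc8, in tert-/- against wild type and the same 1 gene in tert-/- against tert+/-. It was named after its values were seen, and it had counts in 6 of 13 libraries. Of 691 log2 fold changes of members under alternatives, 639 kept their sign and 52 turned, 28 of them on leaving out 1 library. The cause of the turned signs was not tested. In tert-/- against wild type, limma-voom with quality weights gave 0.15 for pvalb1, 0.0072 for pvalb2 and 0.013 for pvalb8, and leaving out the 3 libraries with testis transcripts gave 0.35, 0.18 and 0.15 for pvalb1, pvalb2 and pvalb5. In tert+/- against wild type, pvalb3 turned to 0.020 with library totals only, 0.13 with limma-voom and 0.17 without the 3 libraries, and pvalb8 to 0.13 with library totals and 0.017 with limma-voom. In tert-/- against tert+/-, pvalb8 turned to 0.062 without the 3 libraries and pvalb9 to 0.51 with library totals. Per mutant allele, limma-voom gave 0.094, 0.018, 0.033 and 0.034 for pvalb1, pvalb2, pvalb5 and pvalb8, and leaving out the 3 libraries gave 0.13, 0.051, 0.048 and 0.12 for pvalb1, pvalb2, pvalb5 and pvalb7. For pvalb7 it was 0.00082 with median-of-ratios factors, 0.12 with library totals and 0.00086 with DESeq2.

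Library totals alone moved the median of all genes by 0.52, 0.29 and 0.25, to 0.49, 0.29 and 0.25, in the 3 comparisons. Leaving out 1 library gave ranges that cross 0. For tert-/- against wild type these were -1.23 to 0.11 for pvalb1, -0.97 to 0.28 for pvalb2 and -0.97 to 0.46 for pvalb7. In tert+/- against wild type they were -0.18 to 0.11 for pvalb3 and -0.42 to 0.24 for pvalb8. For tert-/- against tert+/- they were -0.65 to 0.69 for pvalb1, -0.60 to 0.66 for pvalb2, -0.52 to 0.15 for pvalb4, -0.54 to 0.34 for pvalb5, -0.56 to 0.88 for pvalb7, -0.73 to 0.053 for pvalb8 and -0.83 to 0.79 for pvalb9. Per allele they were -0.47 to 0.053 for pvalb2 and -0.47 to 0.12 for pvalb7. With all 13 libraries, at most 1 of the 3 genes most like a member stayed the same. No paired analysis was possible because the labels give no replicate numbers shared between genotypes.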
